A study of Rattus norvegicus with 9 samples.

Results

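The AP-1 and immediate-early genes studied here are Fos, Fosb, Fosl1, Fosl2, Jun, Junb, Jund, Atf3, Egr1 and Ier3. They were chosen by symbol, and all 10 were found among the 17588 genes of an expression table of primary rat chondrocytes, the resident cells of cartilage. The table holds 9 libraries of wild-type chondrocytes in 3 groups of 3: routine culture without interleukin-1β (control), routine culture with interleukin-1β (IL-1β, an inflammatory cytokine), and IL-1β and then co-culture with dermal fibroblasts. The fibroblasts sat in the upper chamber of a transwell and the chondrocytes in the lower one. All chondrocytes were kept in medium with fetal bovine serum. No dose of IL-1β and no times of exposure or harvest stand in the sources used here. No group had co-culture without IL-1β, and the IL-1β group was in routine culture. An effect of the fibroblasts therefore cannot be told apart from one of vessel or timing. The labels do not tell whether replicates came from separate rats or dishes, and p-values therefore reflect only how these libraries scattered, which may be technical.

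AP-1 is a family of DNA-binding protein pairs. Fos proteins (Fos, Fosb, and the Fos-related antigens encoded by Fosl1 and Fosl2) bind DNA only together with a Jun protein, whereas Jun proteins can also pair with each other, and both kinds recognise the sequence TGACTCA. Fos, Jun, Junb, Atf3, Egr1 and Ier3 are known as immediate-early genes, which are transcribed within minutes of a stimulus through MAP kinases and serum response factor without new protein being made, and whose messenger RNAs are short-lived. In cartilage AP-1 is known for its part in switching on collagenase and stromelysin genes after IL-1.

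Levels are FPKM, which are fragments scaled to transcript length and library total, so levels of different genes can be set beside each other. Of the 10 genes, 9 passed the filter of at least 1 FPKM in at least 3 of 9 libraries and were tested. Fosb was not tested: it lay between 0.18 and 0.46 FPKM in all 9 libraries. Changes were tested with limma on log2(FPKM + 1) together with the other genes, 11732 in all, and a gene is said to rise or fall where the Benjamini-Hochberg adjusted p was under 0.05. Each fold printed below is a ratio of mean FPKM. In bulk libraries fewer cells making a transcript and less transcript per cell cannot be told apart.

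FPKM summed to between 771058 and 782435 in control, 796262 and 832248 in IL-1β and 809839 and 811665 in co-culture libraries, so control libraries had the lowest sums. Of 17 listed chondrocyte marker symbols 15 were in the table, all of them tested, and their summed level was 2089 to 2177 FPKM in control, 494 to 516 with IL-1β and 681 to 741 in co-culture. Of these 15, 14 fell and 0 rose with IL-1β, and 11 rose and 0 fell in co-culture against IL-1β. Col2a1, Acan and Sox9, which define the cell type, were present in every library. The 14 listed dermal fibroblast markers summed to 3946 to 4077, 3042 to 3072 and 2702 to 2790 FPKM in the same order, with Dpp4 and Clec3b under 1 FPKM throughout. Of the 10 tested ones 5 rose and 3 fell with IL-1β, and 3 rose and 4 fell in co-culture against IL-1β. Over all tested genes 26.5% rose and 20.2% fell with IL-1β, and 11.9% rose and 10.1% fell in co-culture against IL-1β. Among the fibroblast markers the collagen gene Col1a1 stood at 1973 ± 55.7 FPKM in control and 877 ± 32.1 with IL-1β, and the proteoglycan gene Lum at 87.8 ± 3.29 and 764.5 ± 26.1. The 9 skeletal muscle markers summed to 169 to 176, 378 to 395 and 366 to 410.3 FPKM, and all 8 tested ones rose with IL-1β. Of these, Ckm lay at 0.46 to 0.69 FPKM in control, so it passed the filter only through the other groups. All 6 endothelial markers and the macrophage markers Ptprc and Csf1r were under 1 FPKM in every library, and all 8 macrophage markers summed to 18.9 to 25.2. The part of the muscle, fibroblast, macrophage and chondrocyte markers in the results below was not tested.

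Basal levels of these genes differed widely. In control libraries the order of mean FPKM was Egr1, Ier3, Junb, Fosl1, Jun, Jund, Fosl2, Fos, Atf3 and Fosb, from 122 down to 0.3. Libraries of neighbours in this order overlapped only for Egr1 and Ier3, and for Fosl2 and Fos. Egr1 exceeded 92.1% and Junb 90.4% of all tested genes in the control group, whereas Fos exceeded 41.2% and Atf3 15.9%. With IL-1β the order became Ier3, Junb, Fosl1, Egr1, Jun, Jund, Fosl2, Fos, Atf3 and Fosb, and no neighbours overlapped. In co-culture it was the same except that Egr1 stood above Fosl1, again with no overlap between neighbours.

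**Figure D1:**
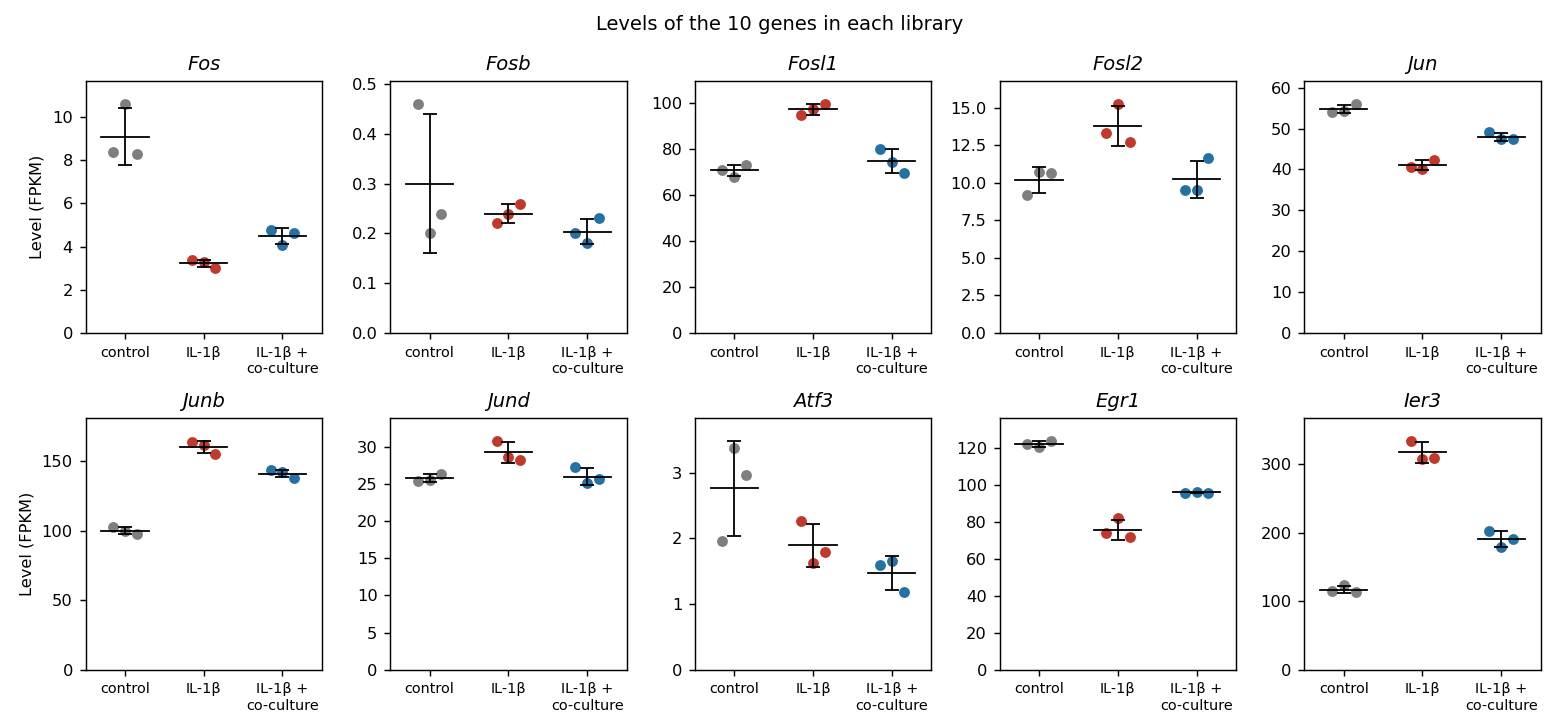
FPKM (vertical axes, each starting at 0 with its own scale) of the 10 genes in the 9 libraries. Points are libraries, horizontal lines are group means and bars are SD (n = 3). Fos, Jun and Egr1 are lowest in the IL-1β libraries, and Fosl1, Fosl2, Junb, Jund and Ier3 are highest there.

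The response to IL-1β was split among these genes, and also within the Fos genes and within the Jun genes. Fosl1, Fosl2, Junb, Jund and Ier3 rose and Fos, Jun and Egr1 fell, which makes 5 higher and 3 lower of the 9 tested, while Atf3 was not called. Over all tested genes 46.7% were called, 26.5% higher and 20.2% lower. The same 8 genes had no overlap between the 3 IL-1β and the 3 control libraries, as did 56.4% of all tested genes (31.3% higher and 25.0% lower with IL-1β). The median size of change of the 9 genes was 0.46 log2, beside 0.15 over all tested genes. Scaling moved the split of calls over all genes, from 56.7% higher as deposited to 40.7% after quantile normalization and 41.4% once all libraries were scaled to 1 common sum.

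In the co-culture group, compared with IL-1β in routine culture, Fos, Jun and Egr1 rose and Fosl1, Fosl2, Junb, Jund and Ier3 fell. That is 3 higher and 5 lower of the 9 tested, where over all tested genes 22.0% were called, 11.9% higher and 10.1% lower. The groups did not overlap for these 8 genes, nor for 37.6% of all tested genes (21.2% higher and 16.5% lower). The median size of change was 0.34 log2 for the 9 genes and 0.09 for all tested genes. Both comparisons use the same IL-1β libraries, so their values are not independent of each other.

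Compared with control, co-cultured cells had higher Junb and Ier3 and lower Fos, Jun, Atf3 and Egr1. These are 2 higher and 4 lower of 9, beside 21.8% higher and 12.2% lower (33.9% in all) over all tested genes. The groups did not overlap for these 6 genes, nor for 46.5% of all tested genes (29.6% higher and 17.0% lower). Calls over all genes were 64.2% higher as deposited, and 43.4%, 49.8% and 44.2% higher with a common sum, median-of-ratios scaling and quantile normalization. Fosl1, Fosl2 and Jund were not called, and their libraries overlapped with control.

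**Figure D2:**
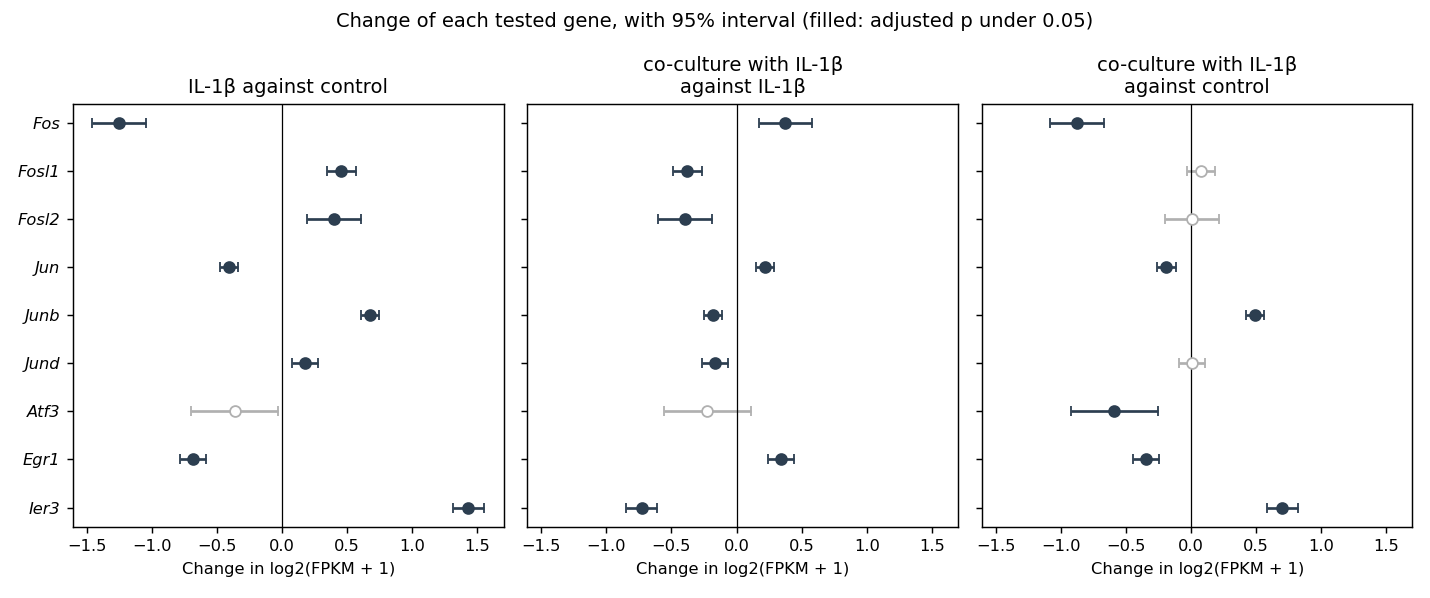
Change in log2(FPKM + 1) of the 9 tested genes (horizontal axis) in the 3 comparisons, with 95% intervals from limma. Filled points have an adjusted p under 0.05. With IL-1β the changes run from -1.25 (Fos) to 1.43 (Ier3).

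Among the Fos genes, Fos itself, the founding member with a strong activation domain, fell with IL-1β. Control libraries held 8.40, 10.6 and 8.28 FPKM, IL-1β libraries 3.36, 3.28 and 3.03, and co-culture libraries 4.75, 4.06 and 4.64. Each IL-1β library lay below every other library, and the co-culture libraries lay between the groups without overlap. The fall with IL-1β was 2.82-fold (-1.25 log2, SE 0.09, adjusted p = 2.12e-06), and with a pseudocount of 5 it was -0.77 log2. In co-culture Fos rose 1.39-fold over IL-1β (0.38 log2, SE 0.09, adjusted p = 0.0160). That call ended without IL-1β replicate 3 (adjusted p = 0.0567) or co-culture replicate 1 (0.0509) or 3 (0.0518), at 0.34 to 0.35 log2, and with a pseudocount of 5 the rise was 0.21. Against control, Fos stayed 2.03-fold lower in co-culture (-0.88 log2, SE 0.09, adjusted p = 5.80e-05).

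Fosl1, which encodes Fra-1, a Fos protein without the activation domain of Fos, moved the other way and was the most abundant Fos gene. It stood at 70.9, 68.0 and 73.1 FPKM in control, 94.7, 97.5 and 99.4 with IL-1β, and 80.1, 74.3 and 69.6 in co-culture. The IL-1β libraries were above all others, and control and co-culture libraries overlapped. The rise with IL-1β was 1.38-fold (0.45 log2, SE 0.05, adjusted p = 3.86e-05), and the fall in co-culture 1.30-fold (-0.38 log2, SE 0.05, adjusted p = 0.000515). Between co-culture and control the difference was 0.077 log2 with a 95% interval of -0.03 to 0.19 (adjusted p = 0.267). Promoter sequences were available from RefSeq (rat build GRCr8) for 6 of the 10 genes, Fosb, Fosl1, Fosl2, Junb, Jund and Egr1, and not matched for Fos, Jun, Atf3 and Ier3. The 250 bases before the start site of Fosl1, chr1:212183635-212183884 on the plus strand, are shown because it is the main Fos transcript in these cells. Capitals mark a GC box (GGGCGG, searched on both strands), which 3 of the 6 promoters and 30.5% of all 33469 rat promoter windows of that length hold.
Fosl1: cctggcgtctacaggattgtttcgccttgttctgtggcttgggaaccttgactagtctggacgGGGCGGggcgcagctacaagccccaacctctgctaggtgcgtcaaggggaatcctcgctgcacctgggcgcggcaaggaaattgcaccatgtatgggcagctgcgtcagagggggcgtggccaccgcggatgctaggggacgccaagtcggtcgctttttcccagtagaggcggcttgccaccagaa

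The AP-1 site TGACTCA, searched on both strands, was in none of the 6 promoter windows and in 4.05% of all windows. The κB site, the recognition sequence of NF-κB, was likewise in none of the 6 and in 3.54% of all. No match says only that these letters are not in this window.

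Fosl2, which encodes Fra-2, a relative of Fra-1, was far less abundant. Its libraries held 9.15, 10.7 and 10.6 FPKM in control, 13.3, 15.2 and 12.7 with IL-1β and 9.52, 9.49 and 11.6 in co-culture. IL-1β libraries were again the highest, and the other groups overlapped. Fosl2 rose 1.35-fold with IL-1β (0.40 log2, SE 0.09, adjusted p = 0.00543) and fell 1.35-fold in co-culture (-0.40 log2, SE 0.09, adjusted p = 0.0131). The fall was not called without co-culture replicate 2 (-0.35 log2, adjusted p = 0.0512). Against control the difference in co-culture was 0.0044 log2 (95% interval -0.20 to 0.21, adjusted p = 0.979), and its sign turned under all 3 rescalings. Fosb, a close relative of Fos, held 0.46, 0.20 and 0.24 FPKM in control, 0.22, 0.24 and 0.26 with IL-1β and 0.20, 0.18 and 0.23 in co-culture. These groups overlapped, at levels too low for the filter.

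As shares of the summed FPKM of the 4 Fos genes, Fos made up 10.1% ± 1.54 (SD, n = 3) in control, 2.82% ± 0.193 with IL-1β and 5.01% ± 0.39 in co-culture libraries. Fosl1 made up 78.3% ± 2.06, 84.95% ± 1.14 and 83.3% ± 2.16, and Fosl2 11.3% ± 0.871, 12.02% ± 1.05 and 11.5% ± 1.82. There were 7.89 ± 1.30 Fosl1 transcripts per Fos transcript in control, 30.2 ± 2.36 with IL-1β and 16.7 ± 1.66 in co-culture, as a ratio of FPKM. The groups did not overlap in this ratio, which ran from 6.41 to 8.83 in control and from 28.2 to 32.8 with IL-1β, with all co-culture libraries between. These shares are descriptions of messenger RNA, given without a test.

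Among the Jun genes, Jun, the strongest activator of the family, fell with IL-1β. It held 54.0, 54.4 and 56.0 FPKM in control, 40.6, 40.2 and 42.4 with IL-1β and 49.1, 47.4 and 47.5 in co-culture. The 3 groups did not overlap, and co-culture lay between the others. Jun fell 1.34-fold with IL-1β (-0.41 log2, SE 0.03, adjusted p = 3.29e-06) and rose 1.17-fold in co-culture over IL-1β (0.22 log2, SE 0.03, adjusted p = 0.000957). It stayed 1.14-fold below control in co-culture (-0.19 log2, SE 0.03, adjusted p = 0.00135).

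Junb, a Jun protein known as a weaker activator that can hold Jun back, rose with IL-1β. Its levels were 103, 99.7 and 97.4 FPKM in control, 164, 161 and 155 with IL-1β and 143, 142 and 138 in co-culture. Again the 3 groups did not overlap. The rise with IL-1β was 0.67 log2 (SE 0.03, adjusted p = 6.67e-08), and in co-culture Junb fell 1.14-fold from IL-1β (-0.18 log2, SE 0.03, adjusted p = 0.00270). It remained 1.41-fold above control in co-culture (0.49 log2, SE 0.03, adjusted p = 1.58e-06).

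Jund, known as the most evenly expressed Jun gene, had the smallest change of the 9 tested genes with IL-1β. It held 25.4, 25.5 and 26.3 FPKM in control, 30.8, 28.6 and 28.2 with IL-1β and 27.3, 25.1 and 25.6 in co-culture. IL-1β libraries were above all others, while control and co-culture overlapped. Jund rose 1.13-fold with IL-1β (0.17 log2, SE 0.04, adjusted p = 0.00922), a call that a common library sum ended (0.11 log2, adjusted p = 0.0563). In co-culture it fell 1.12-fold from IL-1β (-0.16 log2, SE 0.04, adjusted p = 0.0266). This call ended with only the 6 libraries compared (adjusted p = 0.0559) and without IL-1β replicate 1 (0.0882) or co-culture replicate 2 (0.0932) or 3 (0.0761), at -0.16 to -0.13 log2. Against control the difference in co-culture was 0.011 log2 (95% interval -0.09 to 0.11, adjusted p = 0.878), and its sign turned under all 3 rescalings.

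The promoters of Junb and Jund are shown because the pair lay at the far ends of the Jun response in size among the genes that rose. Both are the 250 bases before the start site in GRCr8, at chr19:40080876-40081125 on the plus strand for Junb and chr16:18769772-18770021 on the minus strand for Jund. Capitals in Junb mark a TATA box (TATAAA, searched on both strands). Capitals in Jund mark a cAMP response element (TGACGTCA), an EGR site (GCGTGGGCG) that overlaps a GC box, and 2 more GC boxes.
Junb: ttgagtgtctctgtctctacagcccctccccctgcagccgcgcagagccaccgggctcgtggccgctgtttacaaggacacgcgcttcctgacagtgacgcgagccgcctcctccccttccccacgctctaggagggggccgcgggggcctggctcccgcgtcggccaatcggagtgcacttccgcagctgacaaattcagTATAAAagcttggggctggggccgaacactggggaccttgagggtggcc
Jund: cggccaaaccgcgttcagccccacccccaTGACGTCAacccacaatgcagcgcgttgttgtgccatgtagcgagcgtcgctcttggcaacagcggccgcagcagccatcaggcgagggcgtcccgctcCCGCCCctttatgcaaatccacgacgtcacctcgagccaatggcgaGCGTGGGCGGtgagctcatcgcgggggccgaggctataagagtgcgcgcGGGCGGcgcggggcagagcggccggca

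The TATA box was in 2 of the 6 promoter windows, those of Fosb and Junb, and in 12.9% of all windows, and it starts 49 bases before the start site of Junb. In Fosb the match lies on the opposite strand (TTTATA) and starts 180 bases before the start site. The cAMP response element, where Jun pairs with ATF proteins, was in 1 of 6 (Jund) and in 1.59% of all windows. The EGR site, which Egr1 binds, was also in 1 of 6 and in 0.478% of all, starting 76 bases before the start site of Jund.

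Of the summed FPKM of the 3 Jun genes, Junb made up 55.4% ± 1.12 (SD, n = 3) in control, 69.5% ± 0.689 with IL-1β and 65.6% ± 0.527 in co-culture. Jun made up 30.4% ± 0.765, 17.8% ± 0.815 and 22.3% ± 0.195, and Jund 14.3% ± 0.356, 12.7% ± 0.361 and 12.1% ± 0.376. The ratio of Junb to Jun FPKM was 1.83 ± 0.0826 in control, 3.91 ± 0.209 with IL-1β and 2.94 ± 0.0476 in co-culture. Summed Jun genes stood at 180.5 ± 1.54, 230.4 ± 4.71 and 215 ± 4.34 FPKM, and summed Fos genes at 90.2 ± 1.76, 114 ± 2.51 and 89.6 ± 4.45. Jun transcripts thus outnumbered Fos transcripts 2.00 ± 0.0505 to 1 in control, 2.02 ± 0.082 to 1 with IL-1β and 2.40 ± 0.0703 to 1 in co-culture. In that last ratio control and IL-1β libraries overlapped, at 1.95 to 2.05 and 1.96 to 2.11, and co-culture libraries, at 2.32 to 2.45, lay above both.

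**Figure D3:**
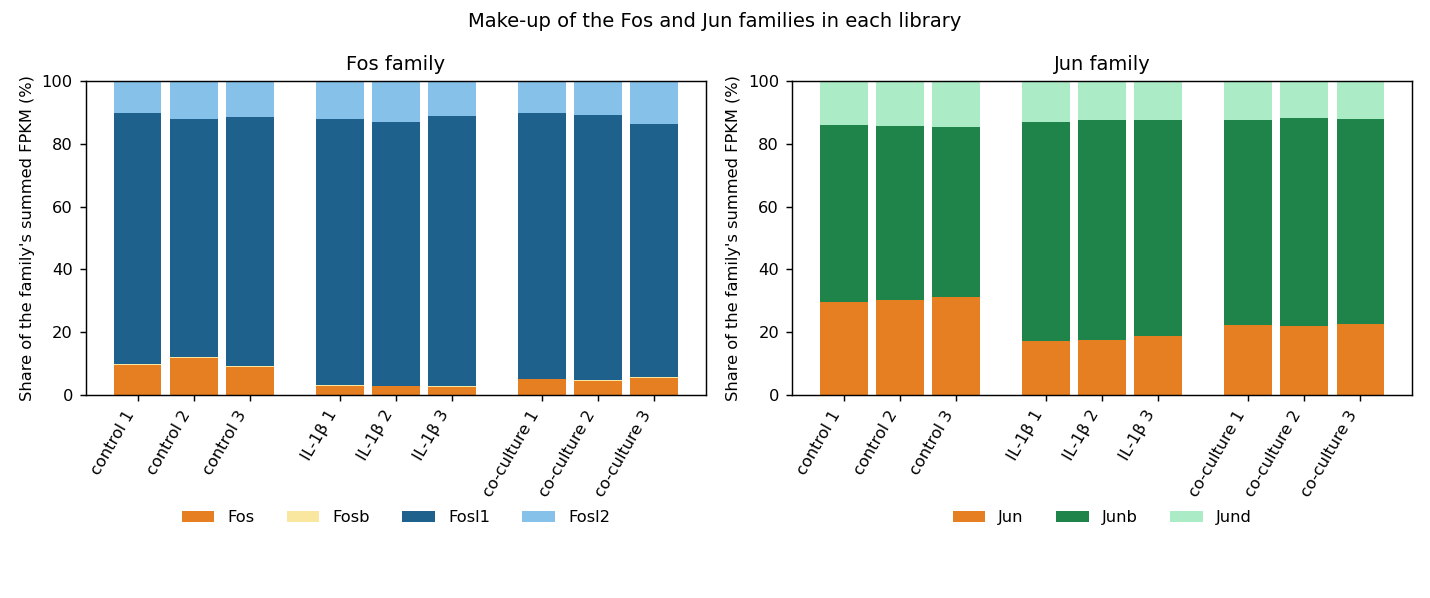
Share of each gene in the summed FPKM (vertical axis, %) of the Fos family (left) and the Jun family (right) in each of the 9 libraries. Fos and Jun take their smallest shares in the IL-1β libraries (2.82% and 17.8% on average), where Junb takes its largest. Fosl1 has its largest mean share there too, but its IL-1β and co-culture libraries overlap.

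Outside the Fos and Jun genes, Egr1, a zinc-finger transcription factor induced through serum response factor, had the highest control level of all 10 genes and fell with IL-1β. It held 122, 120.2 and 124 FPKM in control, 73.8, 81.8 and 71.5 with IL-1β and 95.8, 96.3 and 95.8 in co-culture. The 3 groups did not overlap, and the co-culture libraries had a coefficient of variation of 0.312%. Egr1 fell 1.61-fold with IL-1β (-0.68 log2, SE 0.04, adjusted p = 7.73e-07) and rose 1.27-fold in co-culture (0.34 log2, SE 0.04, adjusted p = 0.000472). It stayed 1.27-fold below control in co-culture (-0.34 log2, SE 0.04, adjusted p = 0.000230). The 250 bases before its start site, at chr18:26736828-26737077 of GRCr8 on the plus strand, are shown because they hold 2 CArG boxes, the sequence that serum response factor binds (searched by name on both strands). Capitals mark the boxes, which start 105 and 83 bases before the start site. Of the 6 promoter windows only that of Egr1 held a CArG box, as did 1.5% of all windows.
Egr1: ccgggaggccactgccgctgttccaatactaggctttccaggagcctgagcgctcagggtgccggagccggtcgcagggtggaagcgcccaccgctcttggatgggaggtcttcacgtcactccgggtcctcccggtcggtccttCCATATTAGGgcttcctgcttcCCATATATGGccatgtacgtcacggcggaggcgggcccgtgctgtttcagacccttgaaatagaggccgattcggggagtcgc

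Srf, the gene of serum response factor, which was named here after its values were seen, stood at 23.4 ± 0.47 FPKM in control, 17.5 ± 0.526 with IL-1β and 19.5 ± 1.93 in co-culture. It fell 1.34-fold with IL-1β (adjusted p = 0.000394), and the co-culture difference from IL-1β was 0.15 log2 (SE 0.06, adjusted p = 0.108).

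Ier3, also called IEX-1, which encodes an NF-κB-responsive survival protein rather than a DNA-binding factor, had the largest rise of the 9 tested genes with IL-1β. Control libraries held 114, 123 and 113 FPKM, IL-1β libraries 334, 308 and 308 and co-culture libraries 203, 179 and 191. No groups overlapped. Ier3 rose 2.71-fold with IL-1β (1.43 log2, SE 0.05, adjusted p = 1.24e-08) and fell 1.66-fold in co-culture (-0.73 log2, SE 0.05, adjusted p = 1.06e-05). In co-culture it stayed 1.63-fold above control (0.70 log2, SE 0.05, adjusted p = 5.66e-06).

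Atf3, a stress-induced ATF protein that usually represses transcription, was low in all groups. It held 1.96, 3.37 and 2.96 FPKM in control, 2.26, 1.63 and 1.80 with IL-1β and 1.59, 1.66 and 1.18 in co-culture. Control libraries spread most (coefficient of variation 26.2%), with replicate 1 below an IL-1β library. The difference between IL-1β and control was -0.36 log2 (SE 0.15, adjusted p = 0.0703), and it passed without control replicate 1 (-0.53, adjusted p = 0.00834), with a common sum (-0.41, adjusted p = 0.0377) and with quantile normalization (-0.46, adjusted p = 0.0306). Between co-culture and IL-1β it was -0.23 log2 with a 95% interval of -0.56 to 0.11 (adjusted p = 0.317). Against control, Atf3 was 1.87-fold lower in co-culture (-0.59 log2, SE 0.15, adjusted p = 0.0125).

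The partners and neighbours of these genes were read from 4 related lists. Counts over these lists are descriptions beside the shares over all tested genes. Those shares were 26.5% higher and 20.2% lower with IL-1β, and 11.9% and 10.1% in co-culture against IL-1β. Of 21 other leucine-zipper (bZIP) genes, most of which can pair with AP-1 or small Maf proteins, 15 were tested, and with IL-1β 7 rose and 4 fell (median 0.035 log2, beside 0.023 over all tested genes). Bach1, a repressor of antioxidant genes, rose from 6.13 ± 0.433 to 11.99 ± 0.53 FPKM (adjusted p = 3.16e-06), and the small Maf gene Mafk from 12.5 ± 0.327 to 18.5 ± 0.993 (adjusted p = 5.45e-06). Maf, a factor with a part in cartilage growth, fell from 10.8 ± 0.267 to 5.51 ± 0.409 (1.97-fold, adjusted p = 8.15e-07). The other three that fell were Jdp2, a repressor that pairs with Jun, at 21.1 ± 0.925 and 16.4 ± 1.51 (adjusted p = 0.00673), Atf7 (adjusted p = 0.00710) and Atf1 (adjusted p = 0.0494). The Atf1 call ended in 11 of 19 other settings, among them leaving out any 1 of the 6 libraries compared.

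In co-culture against IL-1β, Maf was the only bZIP gene of the 15 that rose, to 7.89 ± 0.28 FPKM (adjusted p = 0.000360), and 5 fell (median 0.024 log2, beside 0.016 over all tested genes). Mafg fell from 23.2 ± 1.05 to 17.1 ± 0.78 FPKM (adjusted p = 0.000241) and Bach1 to 8.29 ± 0.671 (adjusted p = 0.000718). Mafk fell to 15.2 ± 0.124 (adjusted p = 0.00201) and Maff from 16.6 ± 0.817 to 12.2 ± 0.305 (adjusted p = 0.00252). The bZIP genes Batf, Batf2, Batf3, Mafa, Bach2 and Nfe2l3 were below the filter.

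Of 33 further immediate-early genes, 32 were in the table and 28 were tested. With IL-1β 9 rose and 13 fell (median -0.099 log2), where 26.5% of all tested genes rose and 20.2% fell. Zfp36l1, which speeds decay of short-lived messenger RNAs, rose from 31.8 ± 0.953 to 88.5 ± 2.41 FPKM (2.78-fold, adjusted p = 4.09e-10). Btg1, an antiproliferative gene, rose from 135 ± 3.17 to 293 ± 4.70 (2.17-fold, adjusted p = 1.36e-09) and Phlda1 from 35.4 ± 1.53 to 89.2 ± 1.85 (2.52-fold, adjusted p = 4.44e-09). Ctgf, a matricellular growth factor gene, fell from 1199 ± 11.2 to 430.5 ± 11.9 (2.78-fold, adjusted p = 8.36e-09). Egr2, a relative of Egr1, fell from 2.19 ± 0.13 to 0.84 ± 0.121 (adjusted p = 8.82e-05), and Klf2 from 14.3 ± 2.77 to 5.08 ± 0.233 (adjusted p = 1.94e-05). The IL-1β libraries of Egr2, at 0.77 to 0.98 FPKM, all lay under 1 FPKM, so it passed the filter only through the other groups. Across the other settings the change of Egr2 ran from -1.29 to -0.30 log2. Of the genes of the Egr1 corepressors, Nab1 rose from 28.2 ± 1.59 to 37.8 ± 0.70 (adjusted p = 7.03e-05) and Nab2 fell from 61.7 ± 1.49 to 54.7 ± 0.52 (adjusted p = 0.00979). Egr2, Klf2, Nab1 and Nab2 were picked out after their values were seen.

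In co-culture against IL-1β, 8 of these 28 genes rose and 7 fell (median 0.025 log2), where 11.9% of all tested genes rose and 10.1% fell. Phlda1 fell to 51.2 ± 2.45 FPKM (1.74-fold, adjusted p = 1.71e-06), Btg1 to 214.6 (adjusted p = 6.99e-06) and Zfp36l1 to 62.8 ± 1.53 (adjusted p = 8.42e-06). Klf10, a zinc-finger gene induced by TGF-β, rose from 21.2 ± 0.788 to 28.2 ± 0.78 (1.33-fold, adjusted p = 9.36e-05), and Klf2 rose to 8.01 ± 1.09 (adjusted p = 0.0126). Egr2 stood at 1.16 ± 0.244 and was not called (0.23 log2, SE 0.10, adjusted p = 0.122). Against control, 9 of the 28 were higher and 12 lower in co-culture, beside 21.8% higher and 12.2% lower over all tested genes.

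Of 35 genes of the MAP kinase cascades and of serum response, which act upstream of AP-1 and Egr1, 30 were tested. With IL-1β 7 rose and 11 fell (median -0.017 log2), where 26.5% of all tested genes rose and 20.2% fell. Map3k8, a kinase that links NF-κB signalling to ERK, rose from 0.56 ± 0.0819 to 14.5 ± 0.448 FPKM (25.9-fold, adjusted p = 1.37e-10). Its control libraries, at 0.49 to 0.65 FPKM, all lay under 1 FPKM, so it passed the filter only through the other groups. The fold rests on that low control level, and across the other settings the change ran from 1.81 to 4.47 log2. Mapk3, which encodes ERK1, rose from 71.0 ± 1.76 to 101.7 ± 0.251 (1.43-fold, adjusted p = 1.70e-07) and Map2k1, its activating kinase, from 85.4 ± 0.911 to 107 ± 1.36 (1.25-fold, adjusted p = 3.34e-06). Mapkapk3, a kinase downstream of p38, fell from 10.3 ± 0.136 to 5.99 ± 0.303 (1.71-fold, adjusted p = 1.23e-06).

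Of these 30 genes 5 were called in co-culture against IL-1β, where 22.0% of all tested genes were. Map3k8 fell to 4.39 ± 0.315 FPKM (3.30-fold, adjusted p = 4.62e-07), Mapk3 to 89.6 ± 1.28 (adjusted p = 0.00111) and Mef2d from 15.5 ± 0.156 to 13.99 ± 0.496 (adjusted p = 0.0338). Rps6ka4, a kinase that phosphorylates CREB and histones, rose from 24.6 ± 0.639 to 27.9 ± 0.0971 (adjusted p = 0.0106) and Mapkapk3 to 6.74 ± 0.0961 (adjusted p = 0.0498). The call of Mapkapk3 ended without any 1 of the IL-1β or co-culture libraries (adjusted p = 0.0552 to 0.147), and that of Mef2d without any 1 of them but co-culture replicate 3 (0.0587 to 0.0960). Over all 19 other settings Mef2d lost its call in 9 and Mapkapk3 in 16.

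Of 18 genes whose promoters are known from textbooks to carry AP-1 sites, all were tested. With IL-1β 16 rose and 0 fell (median 1.15 log2, beside 0.023 over all tested genes, of which 26.5% rose and 20.2% fell). The list was drawn up with earlier results of these data known, so its direction is not independent evidence. The largest fold among the 4 with the smallest p was that of the gelatinase gene Mmp9, 141-fold (0.88 ± 0.0794 to 124 ± 4.35 FPKM, adjusted p = 5.95e-12), and the smallest that of Ccl2, 10.6-fold. Control libraries of Mmp9, at 0.82 to 0.97 FPKM, also lay under 1 FPKM, so it too passed the filter only through the other groups. Across the other settings its change ran from 4.46 to 6.99 log2. Ccnd1, the cyclin D1 gene, at 221.5 ± 1.26 and 223 ± 4.28 FPKM, and Hbegf, an EGF receptor ligand gene, at 144 ± 3.89 and 138 ± 3.40, were the 2 not called, though Hbegf was called lower with a common sum (-0.12 log2, adjusted p = 0.0367) and with quantile normalization (-0.12, adjusted p = 0.0202).

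In co-culture against IL-1β 13 of these 18 fell and 0 rose (median -0.69 log2, beside 0.016). Of all tested genes 10.1% fell and 11.9% rose. Hmox1, the heme oxygenase gene, fell 3.11-fold to 116 ± 3.96 FPKM (adjusted p = 7.57e-08) and Mmp13 5.22-fold to 85.5 ± 13.5 (adjusted p = 4.45e-07). The 5 not called, with adjusted p from 0.165 to 0.933, included Ccnd1, Hbegf, Plaur and Spp1. Against control 13 of the 18 were higher in co-culture and 1, Hmox1, was lower (adjusted p = 0.000737), beside 21.8% higher and 12.2% lower over all tested genes.

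**Figure D4:**
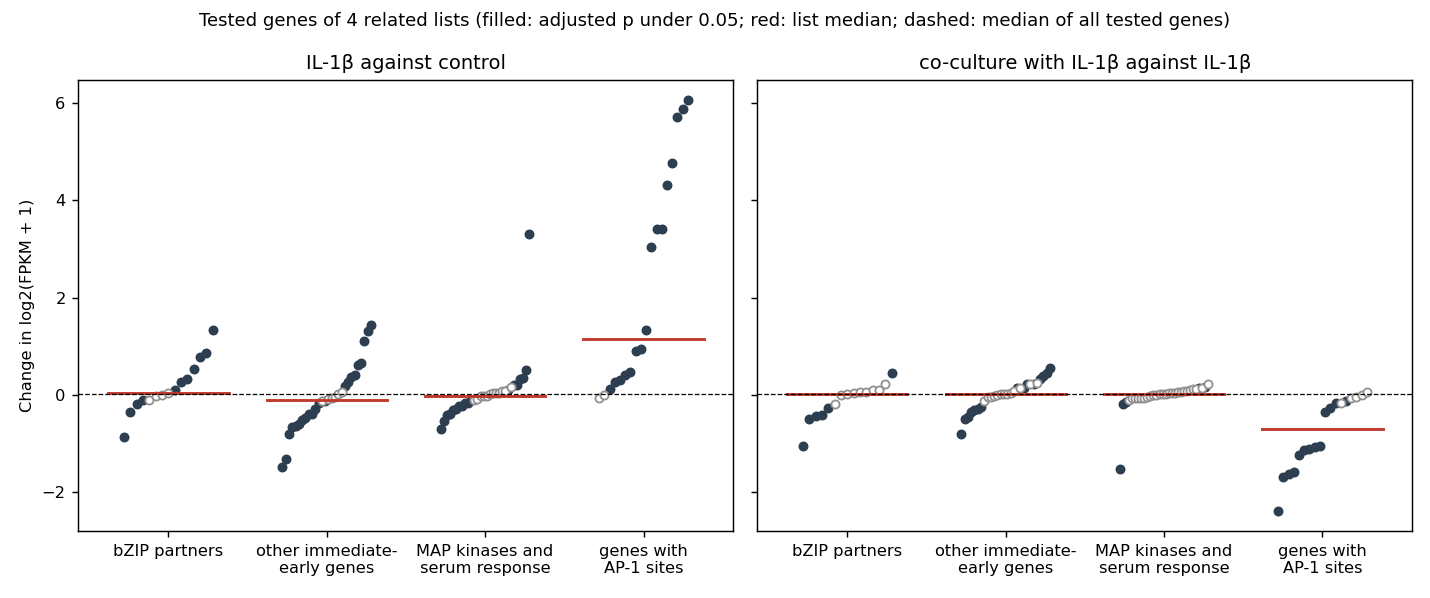
Change in log2(FPKM + 1) (vertical axis) of the tested genes of 4 related lists with IL-1β against control (left) and co-culture against IL-1β (right), each list sorted by size. Filled points have an adjusted p under 0.05, red lines are list medians and dashed lines the median of all tested genes. The median of genes with AP-1 sites is 1.15 on the left and -0.69 on the right, while the other 3 lists spread to both sides of 0.

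Genes with the most similar pattern were sought by the Euclidean distance of log2(FPKM + 1), centred on each gene's own mean, over 9 libraries and among 8714 tested genes averaging at least 5 FPKM. Lrrfip1 lay at a distance of 0.0744 from Jun, and it stood at 62.6 ± 1.24, 47.1 ± 1.05 and 55.1 ± 0.393 FPKM in control, IL-1β and co-culture. Nearest to Junb were Slc16a3, a lactate exporter gene (0.0935), and the phosphoglucomutase gene Pgm1 (0.103). Nearest to Fosl1 were Cited2, a transcriptional co-regulator gene (0.155), and Por (0.156), and Cited2 stood at 70.3 ± 1.30, 102 ± 2.15 and 74.8 ± 3.52. Egr1 had Adgrg6 and Anxa3 (both 0.158), Jund had Atp6v0d1 (0.054) and Aldh9a1 (0.0855), and Fosl2 had Hps1 (0.214) and the catalase gene Cat (0.253). Ier3 had Errfi1, an inhibitor of EGF receptor signalling, at 0.183 and Ddit4, an inhibitor of mTORC1, at 0.202. Errfi1 stood at 48.5 ± 1.94, 132 ± 1.36 and 83.7 ± 2.86 FPKM. Fos had Trabd2b (0.25) and Spats2l (0.304), and Atf3 had Khdrbs3 (0.374) and Casp4 (0.407). Atf3, at 1.18 to 3.37 FPKM, lay below the 5 FPKM asked of candidates, so genes at its level were not searched. Distances were not scaled to the size of change or to scatter, so they do not rank how well patterns match between members.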

How the data were processed

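Chondrocytes were freed from rat cartilage and dermal fibroblasts from skin with collagenase, and messenger RNA was enriched by its poly(A) tail, per the labels' protocols. Whether libraries kept strand is not said there, so reads of antisense or overlapping genes may not have been told apart. Per the file headers, the authors deposited FPKM, with 2 decimals, of 17588 genes. The sources used here name no aligner, counting tool or annotation. The submitters' processing notes name GRCm38, a mouse build, although 93.2% of the gene identifiers, and all 10 members, were found in a rat GRCr8 table. No coordinates are given other than those of RefSeq promoters.

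The table holds no counts, so no count test was run. Spacing of low values placed the worth of 1 read at 1.00 to 1.05 times that of the first control library, from only 10 to 20 genes per library. Only genes whose nonzero values lay within 15% of each other entered, so a larger difference in depth could not have shown. Relative depth is thus not settled by these values, and the absolute depth is unknown. Each library had 11337 to 11522 genes at or above 1 FPKM, and Pearson's r between libraries of a group was 0.994 to 0.995.

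Genes with at least 1 FPKM in at least 3 libraries (11732) were tested with limma 3.58.1 (R 4.3.3) on log2(FPKM + 1) with a mean-variance trend in all 9 libraries, two-sided, with Benjamini-Hochberg adjustment within each comparison. The pseudocount of 1 understates the change of low genes. The test was checked on simulated data with normal noise, in which few genes were changed and none of those was low. That check does not extend to low genes such as Atf3, or to data with as many called genes as these. Figures were drawn with matplotlib 3.10.9. The members and lists were chosen with earlier results of these data known. The genes named were all members, up to 4 called genes with the smallest p per list and comparison, and the 2 nearest patterns per tested member. Others were named after their values were seen, and some that the rule names are not reported here. Alternatives were other pseudocounts, filters, scalings, no trend, only the libraries compared, a replicate block and leaving out each library.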

Additional observations from a re-analysis of the deposited data

How the results depend on the processing

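The counts of called genes and of called members stayed within 1.5 times of their values under every alternative run. Shares within the Fos and Jun families were recomputed only with 1 library left out. They stayed within 1 SD, but leaving out 1 of 3 libraries cannot move a mean by 1 SD, so that check could not fail. Of 510 changes of members recomputed under other settings, 489 kept direction and side of the threshold. Several settings cannot alter the estimated change, only its adjusted p, so direction could not turn there. These are the filters, no trend, the replicate block, only the libraries compared, and leaving out a library of the group not compared. The reversals fell on differences that were not called. For co-culture against control, Fosl2 was -0.054 log2 with a common sum, -0.035 with median-of-ratios scaling and -0.046 with quantile normalization, and leaving out 1 library gave -0.085 (without co-culture replicate 3) to 0.050 (without co-culture replicate 2). Jund was -0.051, -0.031 and -0.040 under the same 3 scalings, and -0.024 to 0.036 with 1 library left out. Ccnd1 with IL-1β was -0.054, -0.016 and -0.018 under these scalings and -0.0038 to 0.022 with 1 library left out, and in co-culture against IL-1β -0.018 to 0.020. The cause was not tested. Between libraries of equal replicate number, deviations from the group means correlated at -0.0907 to 0.0855, and not every library correlated best with its own number. These values show no sign of pairing by number. They cannot tell whether libraries shared a rat, dish or batch. With the replicate number as a block, 5201 genes were called with IL-1β, 2266 in co-culture against IL-1β and 3681 in co-culture against control, and 8, 8 and 6 members, as without it. Among the named genes the block ended the calls of Atf1, Mef2d and Mapkapk3 and brought in that of Plaur. Depth is unknown, and Fosb, below the filter, could not be compared.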
